A study of Drosophila melanogaster with 18 samples.

Results

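CP190 was depleted by RNA interference in Kc cells, a line cultured from Drosophila melanogaster embryos, and the transcript levels were compared with those of control cells. The comparison used 4 arrays of the 18 in the series, titled CP190-1 and CP190-2 against WT-1 and WT-2, and all 16637 transcript rows. Control cells are labelled wild type and received double-stranded RNA against beta-galactosidase, a bacterial gene, so both groups went through the same treatment. Double-stranded RNA was added daily for 3 days and the cells were collected on day 4. The other 7 groups, of 2 arrays each, were knockdowns of 1 protein (BEAF, CTCF or SuHw) or of 2 at once (CTCF+CP190, SuHw+CP190, BEAF+CP190 and BEAF+CTCF). Per the design text the arrays within a group came from independent experiments, so p-values measure the spread between repeats of 1 cell line. RNA came from whole cultures, in which fewer cells of a kind and less RNA per cell cannot be told apart. The row of the targeted gene was not identified, so the extent of the depletion was not analysed here, and no marker of the cell line was paired with a row.

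CP190 is a zinc finger protein with a BTB domain that was first described at centrosomes. In interphase it sits on chromatin at insulators, DNA elements that limit which promoters an enhancer can act on and that lie at borders between chromatin domains. It does not act alone there: BEAF, CTCF and SuHw bind insulator DNA by sequence, and CP190 joins them as a shared cofactor. Many of its sites lie close to the promoters of active genes.

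Values are log2 RMA signals, and a difference of 1 is a 2-fold change of signal. The 4 arrays ran from 2.75 to 15.74, and nothing in the table marks which low signals are background. The replicates correlated across transcripts at 0.9988 for CP190 and 0.9994 for control, while a CP190 and a control array correlated at 0.9946 to 0.9950. Replicates had an SD of 0.118 for CP190 and 0.085 for control (root mean square over transcripts), and 4 transcripts differed by at least 2-fold between the CP190 replicates and 0 between the control replicates. Control, CP190 and BEAF have the cell line written in 1 way in the labels and the other 6 groups in another. The former 6 arrays are the first set and the other 12 arrays the second set here. CP190 against control lies within the first set.

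After CP190 knockdown, 2587 transcripts rose and 3229 fell, most of them by little. Together these 5816 were 35.0% of all transcripts, the rises 15.5% and the falls 19.4% (limma, two-sided, adjusted p under 0.05). The median rise was 0.32 and the median fall was -0.45 on the log2 scale. Of the called changes 1190 were under 0.25, 2840 lay from 0.25 to 0.5 and 1538 from 0.5 to 1. Those from 0.25 to 0.5 were nearly even, at 1485 rises and 1355 falls. From 0.5 to 1 there were 349 rises and 1189 falls, so the falls were the larger changes. At least 2-fold were 34 rises (0.204% of all transcripts) and 214 falls (1.29%), and at least 4-fold 1 rise and 11 falls. Over all transcripts the log2 change had a median of 0.008, a 1st percentile of -1.07 and a 99th percentile of 0.63. The balance of rises and falls among all called transcripts rested on the scaling. With each array centred on its median 52.2% of the called transcripts were higher, with quantile normalization 51.7%, and as deposited 44.5%. Falls were the majority at 2-fold in each of these, where 15.5%, 20.9% and 13.7% were higher. The number of large changes also moved with the scaling. There were 36 rises and 196 falls of at least 2-fold with median centring, and 42 and 159 with quantile normalization. With quantile normalization and a fit of the first set there were 42 and 156. The 34 and 214 followed below are those of the deposited scaling. Leaving out control replicate 1 reduced the rises to 1561 and leaving out control replicate 2 to 1628, with 2390 and 2332 falls.

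**Figure D1:**
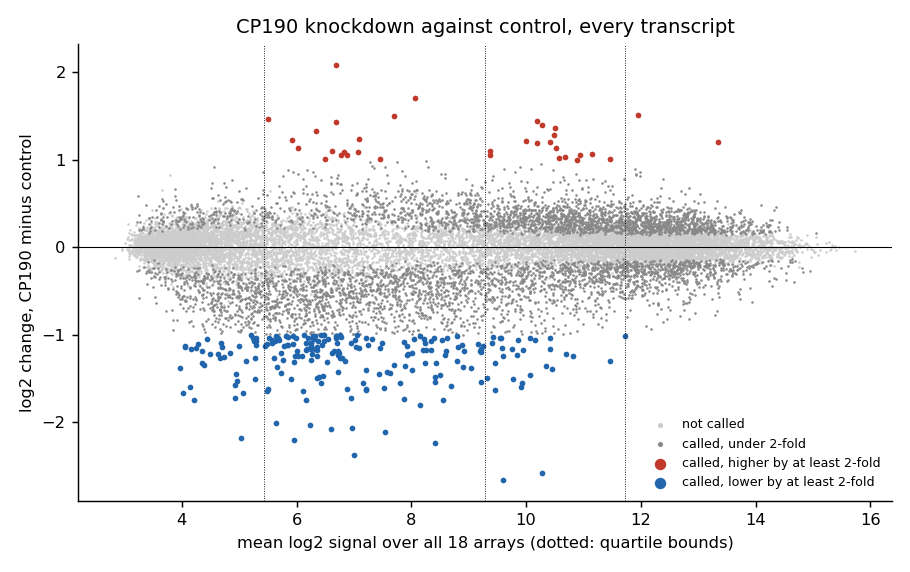
Log2 change of every transcript (CP190 minus control, y axis) against its mean log2 signal over all 18 arrays (x axis), with dotted lines at the quartile bounds 5.44, 9.29 and 11.73. Red points are the 34 called rises and blue points the 214 called falls of at least 2-fold. Blue points crowd the left and middle, and few points of either colour lie right of 11.73.

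The changes depended on the level of the transcript. Transcripts were split into quartiles of mean signal, with bounds at 5.44, 9.29 and 11.73. The second quartile changed most often: 48.3% of it was called, with 602 rises and 1407 falls, against 17.3% in the lowest quartile (209 and 511). Above the median the balance was the other way, with 981 rises and 738 falls in the third quartile and 795 and 573 in the highest. Of the 214 large falls, 185 lay below the median signal and 29 above it. The 34 large rises split evenly, with 16 below and 18 above. This level includes the knockdown arrays, so that a fall itself lowers it. With the level taken from the CP190 and control arrays alone, 164 of the falls and 19 of the rises lay below the median. By control signal alone 153 of the falls and 20 of the rises were below 9.29. In the highest quartile only 2 transcripts rose and 1 fell by at least 2-fold. The replicates were also wider apart at low signal: the SD in CP190 was 0.154 in the lowest quartile and 0.0685 in the highest, and in control 0.116 and 0.0477. The large falls started from a median control signal of 7.94 and ended at 6.73, where 45 of the 214 had a CP190 mean below 5.44, the lower quartile of all signals. In control 11 of them were below it. Where signals end so low, background cannot be separated, and folds of signal can understate those of RNA. The large rises started at a median of 7.72 and reached 8.82, and 4 of the 34 were below 5.44 in control.

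**Figure D2:**
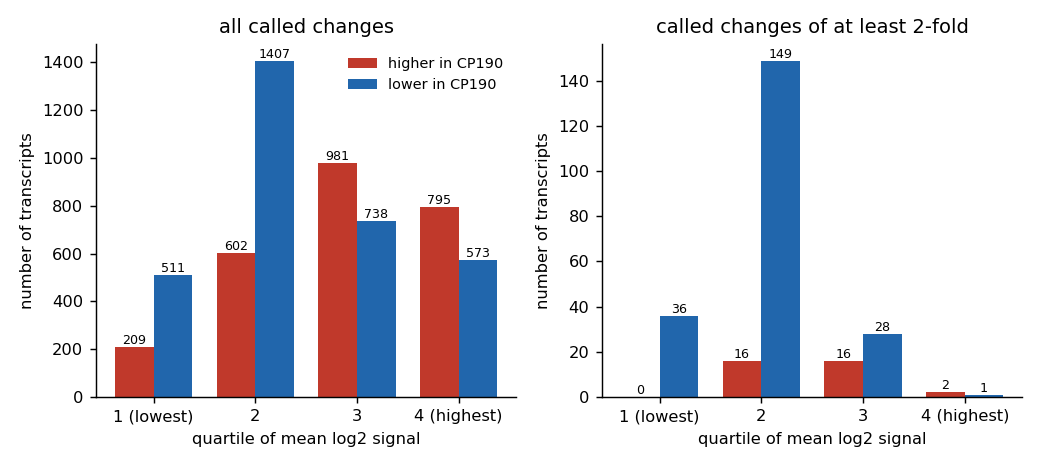
Number of called transcripts (y axis) in each quartile of mean log2 signal (x axis), higher (red) or lower (blue) after CP190 knockdown, for all called changes on the left and for those of at least 2-fold on the right. Falls outnumber rises in the lower quartiles, with 1407 against 602 in the second, and rises outnumber falls in the upper ones, with 981 against 738 in the third.

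The CP190 arrays did not overlap the control arrays for 11537 transcripts, 69.3% of all, of which 5762 were higher (34.6%) and 5775 lower (34.7%). All but 1 of the 5816 called transcripts were among them. Clear separation was rarer and lay mostly on the side of falls. Nearest arrays were more than 0.5 apart for 207 transcripts that were higher and 971 that were lower, and more than 1 apart for 22 (0.132%) and 141 (0.848%). Each CP190 array was set against each control array, which gives 4 differences. Of the 34 large rises 22 reached 2-fold in all 4 differences, 7 in 3 and 5 in 2. Of the 214 large falls 141 did so in all 4, 40 in 3 and 33 in 2. The 22 and 141 are those given above as more than 1 apart. The large changes were chosen by the mean of these same 4 differences, so the counts are no separate check. Counted from single arrays, 31 to 46 transcripts were at least 2-fold higher and 225 to 260 at least 2-fold lower. CP190 replicate 2 gave the larger numbers of falls, at 257 and 260 against 225 and 226 for replicate 1. Just under the 2-fold mark, from 0.9 to 1 on the log2 scale, lay another 10 called rises and 117 called falls.

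The largest rise was that of FBtr0078763, a transcript the files pair with no gene name, as holds for every identifier printed here. Its log2 signal was 5.30 and 5.10 in the control arrays and 7.43 and 7.14 in the CP190 arrays, a 4.25-fold rise (SE 0.11 on the log2 scale, limma adjusted p = 1.9e-07). It was thus low in control and moderate after the knockdown. FBtr0082648 followed, at 6.13 and 6.35 in control and 7.99 and 7.91 in CP190, a 3.27-fold rise (SE 0.15, adjusted p = 3.9e-06). It was also above control without a CP190 knockdown, at means of 7.67 in BEAF, 7.34 in CTCF, 9.04 in SuHw and 8.12 in BEAF+CTCF. The largest falls were those of FBtr0089746 and FBtr0089747, both well expressed in control. FBtr0089746 stood at 11.91 and 11.87 in control and 9.26 and 9.20 in CP190, so that the control signal was 6.33-fold that of CP190 (SE 0.088, adjusted p = 3.5e-09). FBtr0089747 stood at 12.45 and 12.43 in control and 9.89 and 9.83 in CP190, a 5.98-fold difference. Groups were far apart and replicates close together in both. Both were also below their control level in the groups without a CP190 knockdown. FBtr0089746 had means of 10.37 in BEAF, 9.51 in CTCF, 9.15 in SuHw and 9.33 in BEAF+CTCF. FBtr0089747 had means of 11.01, 10.29, 9.87 and 10.06 in the same groups. Among transcripts above the median signal the largest rises were those of FBtr0074336, from 11.18 and 11.10 to 12.62 and 12.69 (2.86-fold, SE 0.079, adjusted p = 1.6e-07), and FBtr0071780, from 9.20 and 9.07 to 10.58 and 10.59 (2.73-fold, SE 0.11). FBtr0074336 had means of 12.56 in BEAF and 12.17 in BEAF+CTCF, but 11.29 in CTCF and 11.09 in SuHw. FBtr0071780 was also above control without a CP190 knockdown, at means of 10.98 in BEAF, 9.85 in CTCF, 10.05 in SuHw and 10.53 in BEAF+CTCF.

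Of the 16 transcripts paired with a gene symbol, 3 rose, 4 fell and 9 did not pass, and 13 had CP190 arrays that did not overlap the control arrays. Over all transcripts 15.5% rose, 19.4% fell and 69.3% did not overlap, so these counts are near the background. Their median log2 change was 0.03, beside 0.008 for all transcripts. The 3 that rose did so by small amounts. The transcript of kis, the gene of the CHD-family chromatin remodeller Kismet, was at 12.19 in both control arrays and at 12.52 and 12.49 in the CP190 arrays, a rise of 0.31 (SE 0.06, adjusted p = 0.0015). The transcript of sle, which encodes a nucleolar protein, went from 13.32 and 13.38 to 13.68 and 13.58, a rise of 0.28 (SE 0.057, adjusted p = 0.0023). For both, the gap between the groups was wider than the gap between replicates. Wdr24 encodes a subunit of GATOR2, a complex that relieves inhibition of the growth kinase TORC1 when amino acids are present. Its values were 10.56 and 10.40 in control and 10.78 and 10.70 in CP190, a rise of 0.26 (SE 0.07, adjusted p = 0.012). The call was lost without CP190 replicate 1, at 0.21 (adjusted p = 0.085), and without control replicate 2, at 0.18 (adjusted p = 0.13). It was also lost at nearly the same size with only CP190 and control in the fit (0.26, adjusted p = 0.06) and with quantile normalization and a fit of the first set (0.25, adjusted p = 0.055).

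The transcript of fend fell the most of the named ones. It went from 10.56 and 10.39 in control to 9.36 and 9.34 in CP190, a fall of 1.13 on the log2 scale (SE 0.074, adjusted p = 6.8e-07), and ranked 159th of 16637 by size of change. NaPi-III, a phosphate transporter gene, went from 13.25 and 13.19 to 12.88 in both CP190 arrays and fell by 0.34 (SE 0.054, adjusted p = 0.00043). The transcript of rdx, which encodes a BTB protein that targets the Hedgehog pathway factor Ci for destruction, fell by 0.35 (SE 0.11, adjusted p = 0.023), from 12.43 and 12.39 to 12.05 and 12.07. The groups lay clearly apart, but the SE is fitted over all 18 arrays, and in SuHw the replicates of rdx were at 12.57 and 12.91. Without any 1 of the 4 arrays rdx did not pass, at -0.34 and -0.36 without CP190 replicate 1 and 2 and -0.33 and -0.38 without control replicate 1 and 2. Fatp1 encodes a fatty acid transporter. It was at 12.17 and 12.21 in control and 11.95 and 12.04 in CP190 and fell by 0.19 (SE 0.069, adjusted p = 0.046). It too did not pass without any 1 of the 4 arrays, at -0.15 and -0.24 without CP190 replicate 1 and 2 and -0.21 and -0.17 without control replicate 1 and 2.

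The other 9 named transcripts had changes of at most 0.19 in size. His4r, a replacement-type histone H4 gene, was at 13.10 and 13.25 in control and 12.99 and 12.97 in CP190 (-0.19, SE 0.077, adjusted p = 0.071). HDAC3, a histone deacetylase gene, was at 11.93 and 11.89 and then 12.03 and 12.08 (0.15, adjusted p = 0.083). Uba1, the gene of the enzyme that activates ubiquitin, was at 14.24 and 14.22 and then 14.37 and 14.35 (0.13, adjusted p = 0.056). These 3 lay near the threshold, with groups that did not overlap. The spectrin gene alpha-Spec (0.11), the laminin gene LanA (0.09), the GATOR2 gene mio (0.07), SuUR, which acts in the replication of heterochromatin (-0.02), CG16974 (-0.08) and CG31178 (-0.09) were further from it. The arrays overlapped for mio, SuUR and CG31178. Of the 19 members of the list of chromatin regulators, 3 were paired with a row, and the others were not identified. Of these 3, 1 rose (kis) and 2 did not pass (HDAC3 and SuUR), where 35.0% of all transcripts were called. Their median log2 change was 0.15, beside 0.008 over all transcripts. The pair of GATOR2 genes, Wdr24 and mio, had changes of 0.26 and 0.07, and whether they differ was not tested.

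**Figure D3:**
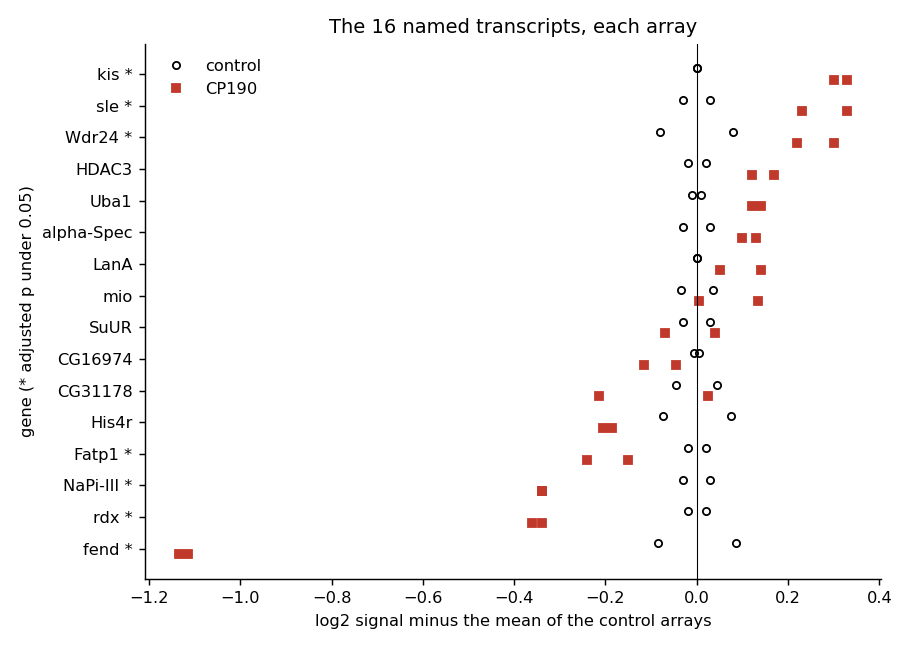
Log2 signal of each array minus the mean of the control arrays (x axis) for the 16 named transcripts (y axis), with control arrays as open circles and CP190 arrays as red squares. An asterisk marks the 7 with an adjusted p under 0.05. The fend arrays lie far to the left, at about -1.13, and the others lie within 0.36 of the control mean.

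The transcripts with large changes were then followed through the other groups. Their levels in control and CP190 arrays follow from the choice and are given for reference only, and comparisons of the other groups with control share those same 2 control arrays. The 214 falls had a median log2 signal of 7.94 in control and 6.73 in CP190. In the other first-set group, BEAF, the median was 6.79. In the second set it was 6.59 in CTCF, 6.68 in SuHw and 6.67 in BEAF+CTCF, which have no CP190 knockdown. In the CP190 doubles it was 6.34 in CTCF+CP190, 6.58 in SuHw+CP190 and 6.44 in BEAF+CP190. Control was thus the group with the highest median, and the groups without CP190 knockdown lay near the CP190 arrays. For single transcripts, both CP190 arrays lay below both BEAF arrays in 114 of the 214, above both in 18, and the groups overlapped in 82. Over all transcripts both CP190 arrays lay below both BEAF arrays in 32.3% and above both in 20.1%. The 214 were chosen for low CP190 values, as the 34 rises were for high ones, so these counts are no independent comparison with BEAF. The 34 rises had a median of 7.72 in control and 8.82 in CP190, and of 9.48 in BEAF, 9.14 in CTCF, 9.20 in SuHw and 9.71 in BEAF+CTCF. In the CP190 doubles it was 9.48, 9.62 and 9.45 for CTCF+CP190, SuHw+CP190 and BEAF+CP190. These medians do not follow single transcripts. Taken within each transcript, the median difference from control was 1.17 in CP190, by which they were chosen. It was 0.91 in BEAF, 0.32 in CTCF, 0.60 in SuHw and 0.80 in BEAF+CTCF, and 1.05, 1.09 and 1.16 in the CP190 doubles. Both CP190 arrays lay above both BEAF arrays in 19 of the 34, below both in 10, and overlapped them in 5. Whether the control arrays or the knockdowns give the high level of the falls in control cannot be told apart. All 8 arrays with a CP190 knockdown lay apart from all 10 without in 4 of the 34 rises and 7 of the 214 falls. The whole table held 44 (0.264%) and 56 (0.337%) such transcripts. The CP190 and control arrays among these also served to choose the lists, so the counts are no independent comparison.

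**Figure D4:**
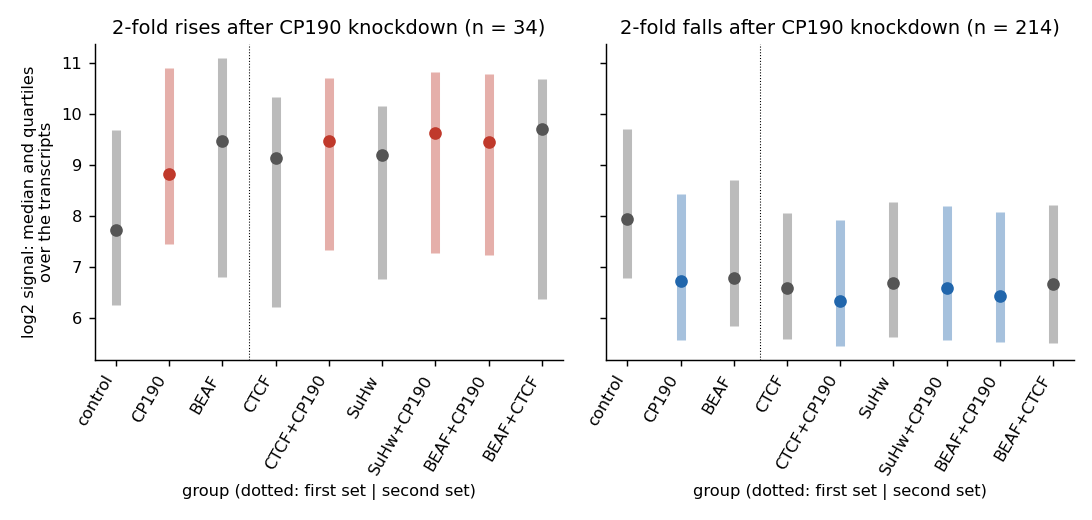
Median (points) and quartiles (bars) of the log2 signal (y axis) over the 34 transcripts that rose (left) and the 214 that fell (right) by at least 2-fold in CP190 against control, in each of the 9 groups (x axis). Coloured groups have a CP190 knockdown, and the dotted line divides the first from the second set. The medians are of signal and not of differences within transcripts. The control point is the highest on the right, at 7.94, and the lowest on the left, at 7.72.

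CP190 depletion was measured again in the double knockdowns. CTCF+CP190 against CTCF (24.4% of transcripts called) and SuHw+CP190 against SuHw (28.4%) each add the CP190 knockdown within the second set, and use none of the arrays of CP190 against control. BEAF+CP190 against BEAF (55.1%) also uses other arrays but sets a second-set group against a first-set group, so that set and CP190 knockdown cannot be told apart in it. Over all transcripts the log2 changes of CP190 against control were only weakly related to those of the doubles. Pearson's r was 0.147 for CTCF+CP190 against CTCF, 0.139 for SuHw+CP190 against SuHw and 0.0333 for BEAF+CP190 against BEAF, across 16637 transcripts that are not independent and share the arrays of each comparison. Of the 5816 called transcripts 54.7% had the same sign in the first of these, 53.9% in the second and 45.8% in the third. Over all transcripts these shares were 51.7%, 53.5% and 45.4%.

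Of the 34 large rises, 22 also rose in CTCF+CP190 against CTCF and 1 fell, where 12.6% of all transcripts rose. In SuHw+CP190 against SuHw 21 rose and 4 fell, where 14.6% of all rose. Of all 2587 rises, large and small, 438 rose and 209 fell on CTCF knockdown, 457 rose and 297 fell on SuHw knockdown, and 658 rose and 915 fell on BEAF knockdown. The median log2 change of the 34 was 0.46 and 0.68 there, beside -0.009 and 0.010 for all transcripts, and thus smaller than the 1.17 by which they were chosen. In both comparisons 17 of the 34 rose, as did 8.17% of all transcripts. In BEAF+CP190 against BEAF 14 rose and 16 fell, where 27.2% of all rose, with a median of -0.06. FBtr0074336 was one that fell there. It stood at 12.70 and 12.43 in BEAF and at 12.22 and 12.25 in BEAF+CP190, a change of -0.33 (adjusted p = 0.0036), while it rose by 1.08 on CTCF and by 1.02 on SuHw knockdown. FBtr0082648 rose by 1.12 on CTCF and 0.94 on BEAF knockdown, but had 0.03 on SuHw knockdown (limma adjusted p = 0.9). FBtr0071780 had 0.08 on CTCF and 0.15 on SuHw knockdown, where neither passed, and -0.61 on BEAF knockdown.

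Of the 214 large falls, 84 also fell in CTCF+CP190 against CTCF and 23 rose, where 11.8% of all transcripts fell. In SuHw+CP190 against SuHw 67 fell and 48 rose, where 13.7% fell. The median log2 changes of the 214 were -0.12 and -0.09, close to 0 beside the -1.19 by which they were chosen. Of all 3229 falls, 758 fell and 591 rose on CTCF knockdown, 782 fell and 664 rose on SuHw knockdown, and 1039 fell and 1135 rose on BEAF knockdown. In both second-set comparisons 58 of the 214 fell, as did 7.42% of all transcripts. Another 121 fell in neither, as was so for most of all transcripts, since only 11.8% and 13.7% fell in these comparisons. In BEAF+CP190 against BEAF 121 of the 214 fell and 45 rose, where 27.9% of all fell, with a median of -0.44. Of the 29 large falls above the median signal, 15 fell on CTCF knockdown and 3 rose, with a median of -0.46. On SuHw knockdown 13 of these 29 fell and 4 rose, with a median of -0.11. The largest falls, FBtr0089746 and FBtr0089747, had -0.46 and -0.53 on CTCF knockdown, and both passed. On SuHw knockdown they had 0.001 and 0.04 (limma adjusted p = 0.99 and 0.77), and on BEAF knockdown -1.74 and -1.67.

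**Figure D5:**
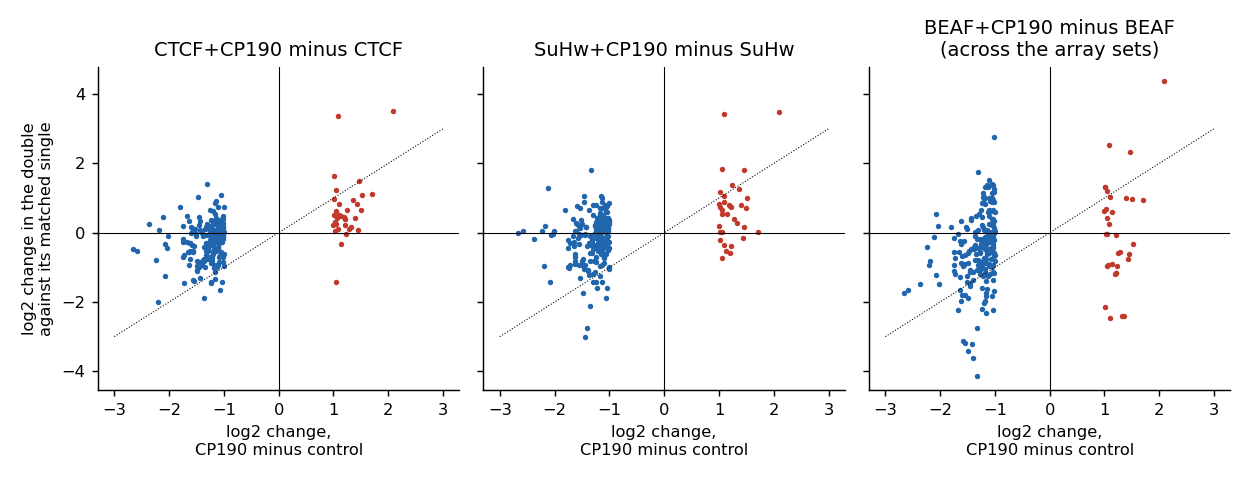
Log2 change in each CP190 double against its matched single (y axis) against the change in CP190 minus control (x axis) for the 34 transcripts that rose (red) and the 214 that fell (blue) by at least 2-fold, with a dotted line where both would be equal. Most red points lie above 0 in the panels for CTCF and SuHw, and the blue points spread to both sides of 0 in every panel.

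In all 3 doubles 7 of the 34 rises passed as rises, beside 4.49% of all transcripts, and 38 of the 214 falls passed as falls, beside 3.06%. FBtr0078763, the largest rise, was the clearest of these. It lay at 5.26 and 5.12 in CTCF and 8.64 and 8.76 in CTCF+CP190, at 4.90 and 5.18 in SuHw and 8.57 and 8.47 in SuHw+CP190, and at 9.44 and 9.50 in BEAF+CP190. Without a CP190 knockdown it stayed at 5.10 in both BEAF arrays and reached 5.74 and 5.56 in BEAF+CTCF. Every array with a CP190 knockdown was thus above every array without, and the CP190 single knockdown was the lowest of those with it. FBtr0075697 rose from 5.57 and 5.92 in control to 7.28 and 7.22 in CP190 (2.82-fold, adjusted p = 1.4e-05), and by 0.67 on CTCF, 0.70 on SuHw and 0.98 on BEAF knockdown. It was also high without CP190 knockdown, at means of 7.90 in BEAF, 7.36 in CTCF, 7.41 in SuHw and 8.53 in BEAF+CTCF. Each of these was above its CP190 mean of 7.25. Among the falls, FBtr0085683 went from 7.78 and 7.82 in control to 5.40 and 5.80 in CP190, a 4.60-fold difference (SE 0.24 on the log2 scale, adjusted p = 2.8e-05). It fell by 1.99 on CTCF, from 6.78 and 6.65 to 4.84 and 4.61, and by 0.97 on SuHw and 0.94 on BEAF knockdown. Without CP190 knockdown it was also below control, at means of 5.91 in BEAF, 6.47 in SuHw and 5.94 in BEAF+CTCF. On SuHw knockdown it did not pass without SuHw+CP190 replicate 2 (-0.84) or SuHw replicate 2 (-0.87), and on BEAF knockdown it did not pass without BEAF replicate 2 (-0.45). FBtr0087434 fell from 6.15 and 6.03 to 4.42 and 4.27 in CP190, by 0.27 on CTCF, 0.45 on SuHw and 0.94 on BEAF knockdown. It was also low without CP190 knockdown, at means of 4.53 in BEAF, 3.97 in CTCF, 4.25 in SuHw and 3.63 in BEAF+CTCF. Its fall on CTCF knockdown did not pass without CTCF+CP190 replicate 1 (-0.19) or CTCF replicate 2 (-0.21).

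Of the 7 named transcripts that passed, only NaPi-III passed the same way on both CTCF and SuHw knockdown, falling by 0.23 on CTCF knockdown, from 13.37 and 13.39 to 13.10 and 13.20, and by 0.35 on SuHw knockdown, from 13.60 and 13.58 to 13.22 and 13.26, while it rose by 0.39 in BEAF+CP190 against BEAF. The fall on CTCF knockdown did not pass without CTCF+CP190 replicate 1 (-0.18) or CTCF replicate 2 (-0.22). The transcript of rdx had -0.27 on CTCF and -0.29 on SuHw knockdown, near its change of -0.35 alone, and neither passed (adjusted p = 0.089 and 0.062). For fend the changes were 0.04 on CTCF and 0.31 on SuHw knockdown. Its level was already 8.76 and 8.82 in CTCF and 8.53 and 8.51 in SuHw, below the 9.36 and 9.34 of the CP190 arrays, and in BEAF+CP190 against BEAF it fell by 0.49. The transcript of kis fell by 0.23 on CTCF knockdown and was at 0.01 on SuHw knockdown, from levels of 13.19 and 13.15 in CTCF and 12.89 and 12.96 in SuHw that were above its CP190 level. The transcript of sle, a rise alone, fell by 0.20 on SuHw knockdown (adjusted p = 0.017), a call lost without SuHw+CP190 replicate 2 (-0.15), SuHw replicate 1 (-0.19) or SuHw replicate 2 (-0.21). Fatp1, a fall alone, rose by 0.32 on SuHw knockdown (adjusted p = 0.0044). Wdr24, a rise alone, fell by 0.21 in BEAF+CP190 against BEAF (adjusted p = 0.024), a call lost without BEAF+CP190 replicate 1 (-0.15) or BEAF replicate 2 (-0.18). The fall of kis on CTCF knockdown did not pass when any 1 of the 4 arrays was left out (-0.21 to -0.25). His4r, which did not pass alone, rose by 0.37 on CTCF, 0.26 on SuHw and 0.82 on BEAF knockdown. Its rise on SuHw knockdown did not pass without SuHw+CP190 replicate 2 (0.23) or SuHw replicate 1 (0.14).

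Whether a CP190 effect differed on another background was tested directly as the difference of the changes. The test called 4551 transcripts on CTCF knockdown (27.4%), 4955 on SuHw knockdown (29.8%) and 8511 on BEAF knockdown (51.2%), where the last crosses the sets. One effect comes from second-set arrays and the other from first-set arrays, so a CP190 effect that differs by set and a difference by background cannot be told apart. Some transcripts moved in opposite directions. FBtr0076497 was at 9.11 and 9.16 in control and 8.49 and 8.44 in CP190, a fall of 0.67, but at a mean of 8.99 in CTCF and 11.10 and 10.97 in CTCF+CP190, a rise of 2.05. It rose by 2.40 on SuHw and 2.82 on BEAF knockdown as well. All doubles with CP190 had it high, and the CP190 single did not. FBtr0074622 fell by 1.30 alone and rose by 1.42 on CTCF knockdown, where it started from 7.26 and 7.32, far below its control values of 11.46 and 11.27. FBtr0100012 fell by 2.12 alone, from 9.44 and 9.28 to 7.26 and 7.22, and rose by 1.30 on SuHw knockdown, from 7.18 and 6.91 to 8.23 and 8.45. FBtr0076503 fell by 0.98 alone, from 12.26 and 12.23 in control to 11.27 and 11.26 in CP190. On SuHw knockdown it rose by 2.26, from 8.48 and 8.49 to 10.65 and 10.85. It started there far below control and stayed below its control and CP190 levels.

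The largest differences in the other direction were of 2 kinds. FBtr0089859 and FBtr0070553 rose alone, by 1.05 (SE 0.21) and 0.86 (SE 0.15), and fell by 1.41 and 0.99 on CTCF knockdown. FBtr0089859 was at 7.64 and 7.75 in control and 8.84 and 8.65 in CP190, and at 10.63 and 10.54 in CTCF and 9.16 and 9.19 in CTCF+CP190. It thus ended near 9 with the CP190 knockdown on either background. FBtr0072020 and FBtr0081618 had no called change alone, at 0.01 and 0.12, and fell by 2.15 and 2.02 on SuHw knockdown. FBtr0072020 stayed between 3.73 and 3.82 in the CP190 and control arrays, was raised to 6.88 in both SuHw arrays and stood at 4.69 and 4.76 in SuHw+CP190. FBtr0081618 was at 10.37 and 10.28 in control and 10.46 and 10.43 in CP190, at 9.63 and 9.45 in SuHw and at 7.55 and 7.50 in SuHw+CP190. It fell by 1.09 on CTCF knockdown too, from 8.68 and 8.72 to 7.55 and 7.67. In each double with CP190 this transcript was low, and in the CP190 single it was at its control level. It was also below control in BEAF+CTCF, at 8.49 and 8.31. Every second-set group was thus below control, while CP190 and BEAF of the first set were not.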

How the data were processed

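RNA of 18 samples was measured on 1-colour (Cy3) NimbleGen arrays. The values are log2 signals per transcript that the authors deposited as 1 table of 16637 rows. Per the submitters' processing notes Partek and RMA were used. Neither version nor settings is stated in the sources at hand, nor which arrays were run together. RMA usually subtracts background, brings arrays to 1 distribution and combines probes. With no detection call in the table, background and low signal look alike. The number of arrays limits the precision.

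The deposited log2 values entered the fit as they stood. Limma 3.58.1 (R 4.3.3, functions lmFit and eBayes) estimated group means from all 18 arrays (9 residual and 3.68 prior degrees of freedom), so that the groups shared 1 estimate of each transcript's spread, and the contrasts were tested two-sided with Benjamini-Hochberg adjustment over all rows. The fit was tested on simulated data. Signal level is the mean over all 18 arrays. Replicate numbers were not used as pairs, since the labels do not tie them to a shared batch.

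Transcript identifiers were looked up among synonyms in the RefSeq gene table (17872 genes, Release 6 assembly), which paired 16 rows with 1 symbol, 28 with several and 16593 with none. All 16 are named. Other rows appear by identifier, at most 2 each way in a comparison, taken as the largest changes that passed in CP190 against control with groups that did not overlap (over all rows, and at or above the median signal), the largest that passed the same way in all 3 doubles, and the largest differences of the CP190 effect on CTCF and on SuHw knockdown. Of 5 gene lists only chromatin regulators had the 3 paired members needed for a count. Insulator proteins had 0, histones 1, TOR and GATOR genes 2 and Hedgehog genes 1. No hemocyte, neuron, muscle, epidermis and gut or germ line marker was paired. The members and lists were chosen with earlier results of these data known. Alternatives were other sets of arrays in the fit, 3 other scalings, a filter on low signals, an intensity trend, the replicate number as a block, and each array left out in turn.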

Additional observations from a re-analysis of the deposited data

Results flagged for a closer look

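The CP190 effect on another knockdown differed from the CP190 effect alone, by the test of the difference, for 4551 transcripts on CTCF and 4955 on SuHw knockdown. Since that test spans both array sets, set and background cannot be told apart in it. A positive value means a higher change on the other knockdown than alone, on the log2 scale, and each value below passed (limma with Benjamini-Hochberg). The transcripts given by identifier were chosen for a large difference or a large CP190 change alone, which is subtracted in the difference. Their values thus follow in part from the choice.

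Among the named genes the difference was 1.16 on CTCF and 1.43 on SuHw knockdown for fend, 0.57 and 0.45 for His4r, and 0.37 and 0.51 for Fatp1. It was -0.54 and -0.31 for kis and -0.41 and -0.48 for sle, and for Wdr24 it passed on SuHw knockdown at -0.36. Without CP190 replicate 1, Fatp1 on CTCF knockdown (0.32) and Wdr24 (-0.32) did not pass, nor did Wdr24 without control replicate 2 (-0.28). The kis difference on SuHw knockdown did not pass without SuHw+CP190 replicate 2 (-0.26) or SuHw replicate 2 (-0.27).

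Among transcripts that rose alone, FBtr0078763 differed by 1.42 on CTCF and 1.40 on SuHw knockdown, with the larger rise in the doubles. FBtr0082648 differed by -1.68 on SuHw knockdown. FBtr0074336 had -0.44 and -0.50, FBtr0071780 -1.37 and -1.30, FBtr0075697 -0.83 and -0.79, FBtr0089859 -2.46 and -1.79, and FBtr0070553 -1.85 and -0.97 on CTCF and SuHw knockdown. FBtr0075697 did not pass without control replicate 1 (-0.66 and -0.62), nor on SuHw knockdown without SuHw+CP190 replicate 1 (-0.62) or SuHw replicate 2 (-0.68).

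Among transcripts that fell alone, the differences on CTCF and SuHw knockdown were 2.21 and 2.66 for FBtr0089746, 2.05 and 2.62 for FBtr0089747, 1.48 and 1.30 for FBtr0087434, and 2.72 and 3.08 for FBtr0076497. They were 2.72 and 2.10 for FBtr0074622, 2.58 and 3.42 for FBtr0100012, and 2.13 and 3.25 for FBtr0076503. FBtr0085683 differed by 1.23 on SuHw knockdown, and did not pass without SuHw+CP190 replicate 1 (1.09) or CP190 replicate 1 (1.02). Of those not called alone, FBtr0072020 had -0.45 and -2.16, and FBtr0081618 -1.21 and -2.14.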

How the results depend on the processing

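Counts were compared under the alternatives, and 110 stayed within 1.5 times, or a share within 1 SD over choices of single arrays. The other 20 were among the following. Restricted to transcripts at or above the median signal, where fewer are tested, CP190 against control called 3661, of which 1542 were lower, with 18 and 29 at least 2-fold higher and lower. SuHw+CP190 against SuHw then called 2995 of 4721 and BEAF+CP190 against BEAF 5287 of 9161, and the tests of the difference 2999 on CTCF, 3174 on SuHw and 4934 on BEAF knockdown. Leaving out 1 array gave 1561 to 1971 rises in CP190 against control, 2325 to 3124 called on CTCF knockdown beside 4065 (2325 without CTCF+CP190 replicate 1, 2354 and 2364 without CTCF replicate 1 and 2), and 3130 to 5095 on SuHw knockdown (3130 without SuHw+CP190 replicate 2). Arrays more than 0.5 and 1 apart numbered 1178 and 163. Among changes of at least 2-fold the share with the same sign was 67.3%, 59.7% and 66.1% on CTCF, SuHw and BEAF knockdown. The cause was not tested for the changes without single arrays.

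With the replicate number as a block over all arrays 5800 transcripts were called in CP190 against control. The labels give the numbers no shared batch, and not all groups deviated together. Replicate differences correlated at 0.0251 between CP190 and control and at -0.199 to 0.453 between all groups, over 0.1 in 10 of 36 pairs of groups. Those of SuHw, CTCF+CP190, BEAF+CTCF and BEAF+CP190 correlated at 0.166 to 0.453 in all 6 pairs. Of the 7 named genes that passed, kis, sle, NaPi-III and fend kept their call under each alternative run for them (fend lies below the median signal and was not in that filter), and Wdr24, rdx and Fatp1 did not. Fatp1 did not pass with the first set alone in the fit (limma adjusted p = 0.071) or with CP190 and control alone (0.08). Nor did it with quantile normalization and a fit of the first set (0.055) or with median centring (0.098). It passed with quantile normalization over all arrays (0.024), above the median signal (0.022) and with an intensity trend (0.021). The block over all arrays also ended the call of Fatp1 (adjusted p = 0.056) and brought His4r past the threshold (0.047). His4r, HDAC3 and Uba1 also passed above the median signal (adjusted p = 0.038, 0.047 and 0.032) and with an intensity trend (0.026, 0.047 and 0.016), HDAC3 and Uba1 with median centring (log2 changes of 0.18 and 0.16), and Uba1 with quantile normalization (adjusted p = 0.045). Values that did not pass changed sign for CG31178 (0.05 with quantile normalization, of all arrays or of the first set, and -0.21 to 0.03 over the left-out arrays, 0.03 without CP190 replicate 2), SuUR (0.01 with median centring and -0.07 to 0.04 over the left-out arrays, 0.04 and 0.02 without CP190 or control replicate 2), mio (-0.0001 to 0.14, at -0.0001 without CP190 replicate 1) and FBtr0072020 (-0.03) without CP190 replicate 1, and FBtr0072020 without control replicate 1 (-0.01). Low signal limits the reading of large falls, since no measure of background is given.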
